A study of Mus musculus with 2 samples.

Results

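Macrophage-like myeloid cells made up 57 of 3686 cells in 2 single-cell RNA libraries of cultured mouse epidermal cells. A cell was counted as a member when at least 3 of the 6 genes Fcer1g, Tyrobp, Lyz2, Pf4, Fcgr3 and Wfdc17 each reached 100 CPM, the unique molecular identifiers (UMIs) of a gene per 1e+06 UMIs of that cell. The members were thus chosen by measured RNA levels of these libraries. The rule was met by 20 of 1760 cells in the library labelled knockout and by 37 of 1926 cells in the library labelled wild type. The study set epidermal cells in which Bap1 was deleted against controls; Bap1 encodes a deubiquitinase of the nucleus that acts on histone H2A. The library labelled knockout came from 9 pooled neonates of genotype Bap1fl/fl Rosa26-CreERT2, and the library labelled wild type from 11 pooled neonates of genotype Rosa26-CreERT2. All animals were C57BL/6 at postnatal day 1. CreERT2, a recombinase that 4-hydroxytamoxifen (4-OHT) activates, was carried by both genotypes at Rosa26, a locus active in nearly all cell types, so its activity was not limited to keratinocytes. Both pools were grown in M254 medium with human melanocyte growth supplement, a medium made for melanocytes, received 4-OHT at 100 nM for 4 days and were harvested 3 days after its removal.

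Macrophages are phagocytes that clear dead cells and microbes. They depend on the receptor for colony stimulating factor 1, encoded by Csf1r, and on the transcription factor PU.1, encoded by Spi1. In intact skin the resident cells of this lineage in the epidermis are Langerhans cells, and other macrophages lie in the dermis. Macrophages are also a main source of C1q, the recognition molecule of the classical complement pathway, which is built from the products of C1qa, C1qb and C1qc.

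Each genotype gave 1 library, so no spread between replicates exists and no test was made. Every 95% interval below covers counting error only, and the members of 1 library share their pool and are not replicates. The libraries held 64954113 UMIs (labelled knockout) and 77579465 UMIs (labelled wild type). Bap1 RNA went against the labels, with 19.9 CPM in the other cells of the library labelled knockout and 14.1 CPM in those of the library labelled wild type. In members it had 5 and 8 UMIs, or 14.0 CPM in the library labelled knockout and 9.62 CPM in the library labelled wild type, a log2 ratio of 0.54 (−1.41 to 2.34). Tags come from the 3′ end of transcripts, and which exons were deleted is not stated in the labels, so the Bap1 tag checks nothing. Every direction below therefore rests on the labels. The libraries shared 3 cell barcodes, and 0 of these belonged to members.

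Members were a smaller share of the library labelled knockout, although the interval of the ratio included 1. They were 1.14% of its cells (exact Clopper-Pearson interval 0.695 to 1.75%) and 1.92% of the cells of the library labelled wild type (1.36 to 2.64%), a ratio of 0.592 (0.325 to 1.05). Members also had fewer UMIs than the other cells. In the library labelled knockout the members' totals ran between 9320 and 37794 UMIs with a median of 16120, against a median of 33883.5 in the other cells. In the library labelled wild type they ran between 10550 and 53776 with a median of 19694, against 37763 in the other cells. Genes with a UMI per member had medians of 3625.5 and 3749. Mitochondrially encoded genes took a median of 0.494% of the UMIs of members in the library labelled knockout and 0.694% in the library labelled wild type, below the 1.14% and 1.27% of the other cells of these libraries.

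Since the 6 genes chose the members, their gap to the other cells is a description, with few cells in between. All 6 genes reached 100 CPM in 12 members of the library labelled knockout and in 31 members of the library labelled wild type, 5 genes did so in 7 and 5 members, and 4 genes in 1 member of each library. No cell of either library had 3 such genes. The nearest cell outside the rule, in the library labelled knockout, had 2, with 220 CPM of Fcer1g and 110 CPM of Tyrobp, while the member of that library nearest to the limit had 6809 CPM of Fcer1g. A further 27 cells of the library labelled knockout and 17 of the library labelled wild type had 1 such gene. In the library labelled wild type 1 member passed close to the limit, with 5 genes between 102 and 265 CPM.

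Fcer1g and Tyrobp encode signalling adaptors of activating immune receptors, and Fcgr3 encodes a receptor for immunoglobulin G. Fcer1g ran between 2358 and 8097 CPM (median 4539) over the 20 members labelled knockout and between 122 and 8300 CPM (median 5179) over the 37 members labelled wild type. Fcgr3 ran between 2461 and 9105 CPM (median 5216) in the library labelled knockout and between 245 and 15566 CPM (median 4515) in the library labelled wild type. The cells of the libraries overlapped over most of their range for both genes. Lyz2, the gene of the M-type lysozyme of macrophages, was far less even, between 0 and 24951 CPM (median 1643) in members labelled knockout and between 53.1 and 19950 CPM (median 665) in members labelled wild type. Pf4, the gene of the chemokine platelet factor 4 (CXCL4), had medians of 3912 and 4056 CPM, and Wfdc17, which encodes a small secreted protein with a whey acidic protein domain, medians of 9589 and 10373 CPM. A gene identifier without a symbol had the same count as Wfdc17 in 3686 of 3686 cells, so the UMIs of Wfdc17 stand in the totals under both identifiers.

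**Figure D1:**
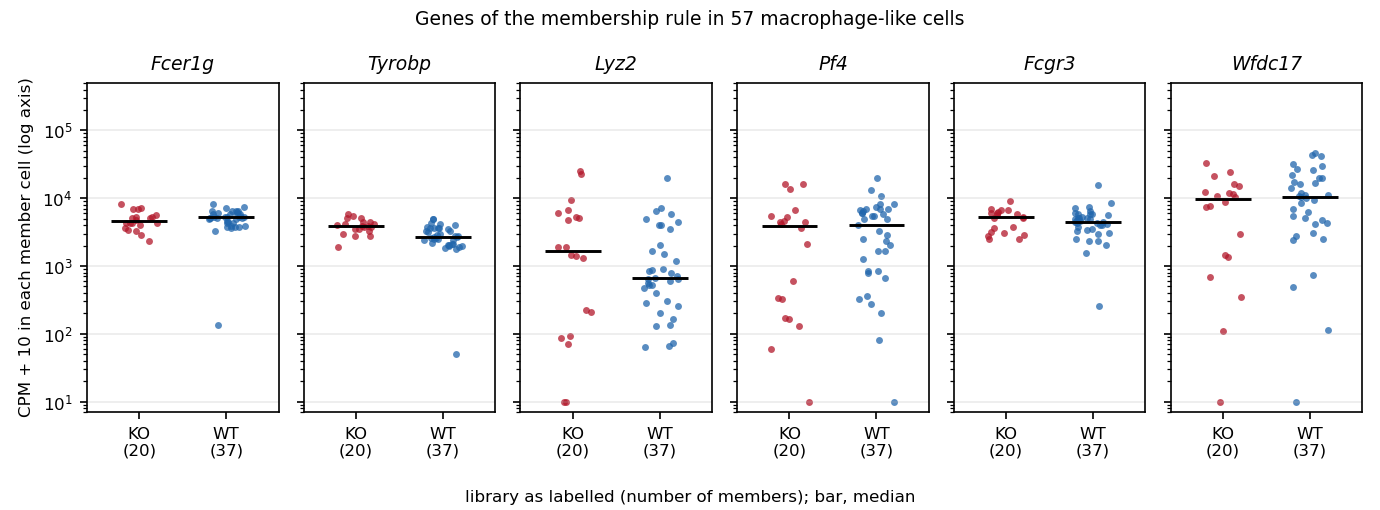
Level of the 6 genes of the membership rule in each of the 57 members, on a log axis of CPM + 10, with the library labelled knockout (KO, 20 cells) left of the library labelled wild type (WT, 37 cells). Points are cells and bars are medians; Fcer1g, Tyrobp and Fcgr3 form tight bands apart from 1 low cell of the library labelled wild type, and Lyz2 and Pf4 spread over several orders of magnitude.

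That low cell, a member of the library labelled wild type with 49043 UMIs, carried 122 CPM of Fcer1g and 40.8 CPM of Tyrobp. It also held 2406 CPM of Krt5, the basal keratin gene, where the median member of its library had 116 CPM. Its 12 keratinocyte markers summed to 33848 CPM, above the median of 24228 CPM in the other cells of its library. The name macrophage-like is thus not borne out for this cell, which the rule keeps. It was the 1 member of both libraries whose summed Krt5 and Krt14 exceeded 0.5 times the median of the other cells of its library. Values without it are given below for the keratinocyte genes, for the count of lower genes and for the share with C1q RNA.

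Macrophage markers outside the rule were present in members and near 0 in other cells. Spi1 had 488 CPM in members and 0.310 CPM in other cells of the library labelled knockout, and 437 CPM in members and 0.469 CPM in other cells of the library labelled wild type. Csf1r had 171 CPM and 165 CPM in members (knockout label first), Cd68, a protein of the endosome and lysosome, 822 and 699 CPM, and Adgre1, which encodes the macrophage surface protein F4/80, 283 and 383 CPM. The list of 20 pan macrophage surface genes summed to 12567 CPM in members against 27.0 CPM in other cells of the library labelled knockout, and to 9660 against 36.1 CPM in the library labelled wild type. Since the rule chose the cells, these levels are a description.

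Several defining markers of Langerhans cells, dendritic cells and monocytes were at 0, while others had UMIs. Cd207, which encodes the Langerhans cell lectin langerin, had 0 UMIs in the members of both libraries, where 3 counts of the total would be 8.41 CPM in the library labelled knockout and 3.61 CPM in the library labelled wild type. Flt3 and Ccr7 of dendritic cells, Ccr2 and Plac8 of monocytes, the class II gene H2-Aa and its regulator Ciita also had 0 UMIs. Of the 10 monocyte genes 3 had no UMI, and Ly6c2 had 3 UMIs in members labelled knockout and 80 in members labelled wild type. The 3 genes of the Langerhans cell list with at least 50 UMIs, Cd24a, Epcam and Mfge8, are also genes of epithelial cells, and that list summed to 325 CPM in members labelled knockout and 537 CPM in members labelled wild type, below the 2748 and 2870 CPM of the other cells. Cd163, Folr2 and Timd4, used as markers of tissue-resident macrophages, had 0 as well, and Mrc1, the gene of the mannose receptor, had 0 UMIs in the library labelled knockout and 5 in the library labelled wild type. Selenop, which encodes a secreted selenium transport protein and is high in resident macrophages, had 1085 CPM in members labelled knockout and 1114 CPM in members labelled wild type.

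Markers of other blood and stromal cells were mostly absent, with a few exceptions. Of the 11 neutrophil markers 3 had no UMI in members. Mmp8, the gene of neutrophil collagenase, had 2454 CPM in members labelled knockout and 1782 CPM in members labelled wild type and made up nearly the whole sum of that list (2490 and 1801 CPM), while Ly6g had 0 and 3 UMIs and Mpo 0. The 6 erythroid markers had 0 UMIs, the B cell list 0 and 2 UMIs and the T and NK cell list 2 and 0 UMIs. Dcn, the gene of the matrix proteoglycan decorin and a fibroblast marker, had 656 CPM from 6 members of the library labelled knockout and 493 CPM from 18 members of the library labelled wild type, against 0.774 and 2.97 CPM in other cells. Col1a1, Col1a2, Col3a1, Lum and Pdgfra, 5 further fibroblast markers, had 0 UMIs in members.

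**Figure D2:**
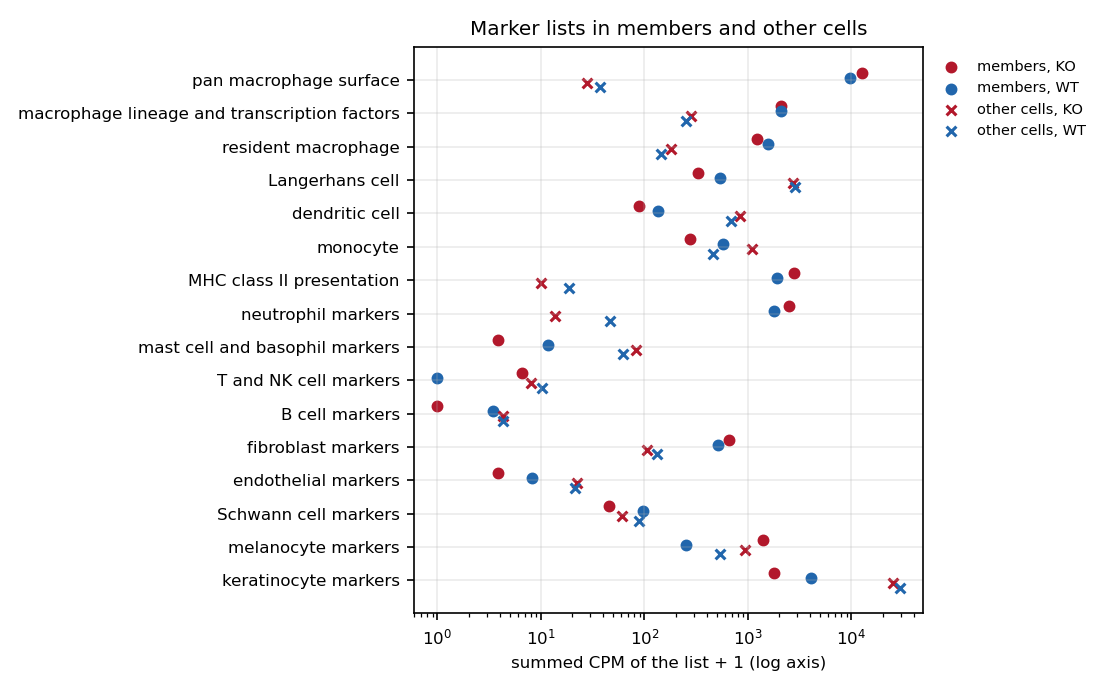
Summed level of 16 marker lists on a log axis of CPM + 1. Filled circles are members and crosses the other cells, red for the library labelled knockout and blue for the library labelled wild type; the macrophage lists and the neutrophil list (from Mmp8) are higher in members, and the keratinocyte and Langerhans cell lists are higher in the other cells.

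Much of the members' RNA came from genes of the acute phase, of iron storage and of secreted defence proteins. Since the kit counts 1 tag a transcript, these shares need no correction for transcript length. Saa3, which encodes an acute phase serum amyloid A protein that macrophages make, took 7.28% of the members' UMIs in the library labelled knockout and 10.6% in the library labelled wild type. Per cell it ran between 0 and 193293 CPM (median 54907) in the library labelled knockout and between 816 and 246379 CPM (median 106703) in the library labelled wild type. Saa3 was below 10000 CPM in 4 of 20 members labelled knockout and in 2 of 37 labelled wild type. Fth1, the ferritin heavy chain gene, took 6.69% of UMIs in the library labelled knockout and 6.26% in the library labelled wild type. Lcn2, whose product binds bacterial iron carriers, took 2.74% and 2.28% (knockout label first), and Hp, the gene of haptoglobin, 0.783% and 1.22%. The log2 ratio of library labelled knockout over library labelled wild type was −0.55 for Saa3 (−0.57 to −0.53), −0.65 for Hp (−0.71 to −0.59) and 0.10 for Fth1 (0.08 to 0.12).

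A gene was compared when its members' sum reached 50 UMIs over both libraries, which 2749 did. Of these, 341 (12.4%) were at least 5-fold higher in members than in other cells in both libraries and 68 (2.47%) at least 5-fold lower. The 20 genes with the largest such ratio, taking the lower of the libraries and levels of 100 CPM or more, included Csta2 and Cstdc4, which encode cystatins that inhibit cysteine proteases, and Cd52, a gene of a leukocyte surface glycoprotein. They also held the receptor genes Fpr2 (formyl peptides), Msr1 (modified lipoproteins), Pirb (an inhibitory receptor) and Clec4d (a C-type lectin), the acute phase genes Saa1 and Saa2, and Apoc2, C1qa, C1qb and C1qc. Ms4a6c, Samsn1, Lrrc25 and Wfdc21 were also among them, beside Fcer1g, Tyrobp and Pf4 of the rule. Saa1 and Saa2 are near-identical copies, and so are several Csta and Cstdc genes, and the counting could have split their reads. Csta2 was 2890 times as high in members as in other cells in the library labelled knockout and 2633 times in the library labelled wild type. Slc7a11, the gene of the cystine transporter subunit xCT, had 1231 CPM in members and 5.81 CPM in other cells of the library labelled knockout, and 984 CPM in members and 6.93 CPM in other cells of the library labelled wild type.

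The genes whose level per cell followed the summed rule genes most closely were mostly myeloid genes. The first 10 in the library labelled wild type also held Saa3 and Slc7a11. Pearson's r of CPM, without a log, over all 1760 cells of the library labelled knockout was highest for Hcls1 (0.890), Itgam (0.882) and Cd38 (0.872). Over the 1926 cells of the library labelled wild type it was highest for Ms4a6d (0.894), Ctss (0.887) and Cd53 (0.870). The cells of a library share its depth and its free RNA, and these correlations are a description. Since members are the cells with high rule genes, r largely repeats the split that the rule made. Clec4d and Fpr1 were among the first 10 genes in both libraries.

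Between the libraries, summed members differed by 2-fold or more at few genes. Of the 2749 genes, 61 (2.22%) were at least 2-fold higher in the library labelled knockout and 113 (4.11%) at least 2-fold lower, 6.33% in either direction, and the median log2 ratio was 0.06. Without the keratin-rich member of the library labelled wild type, 77 genes were lower. For 62 of the 113 lower genes, members labelled wild type lay at or below the level of the other cells of their library. For 60 of the 61 higher genes, members labelled knockout lay above that of theirs. The rule genes Fcer1g (log2 ratio −0.05, −0.13 to 0.03), Fcgr3 (0.08, 0.00 to 0.17), Pf4 (0.00, −0.08 to 0.09) and Wfdc17 (−0.13, −0.19 to −0.08) were close to equal. Tyrobp was at 0.54 (0.44 to 0.64) and Lyz2 at 1.31 (1.22 to 1.39).

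**Figure D3:**
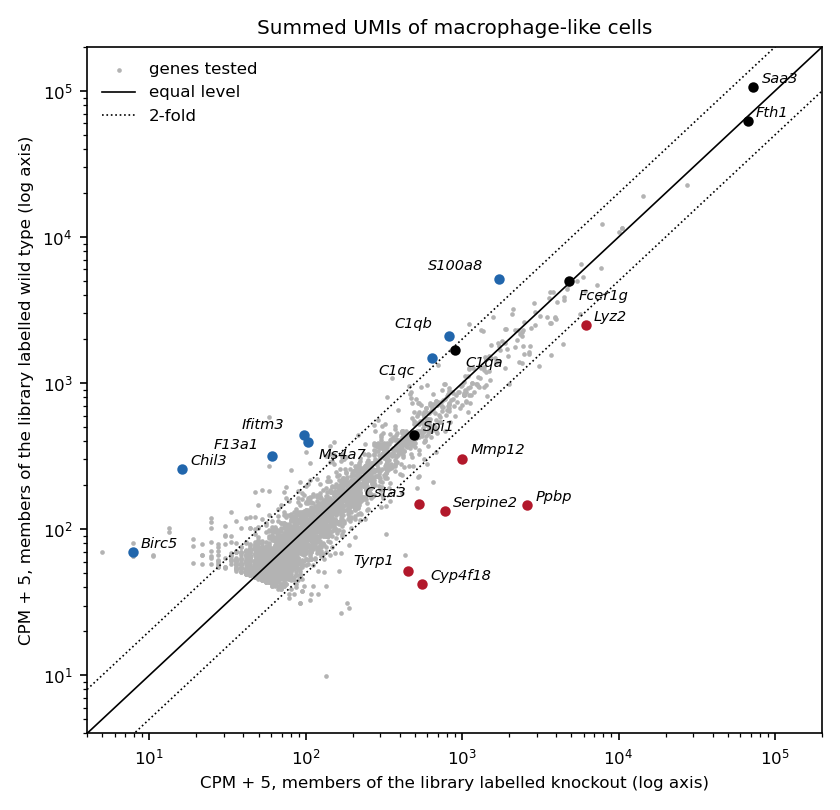
Summed UMIs of the members as CPM + 5 on log axes, library labelled knockout on the horizontal axis and library labelled wild type on the vertical axis, for the genes with at least 50 UMIs (grey). The solid line marks equal levels and the dotted lines 2-fold; named genes past 2-fold are red where higher in the library labelled knockout (such as Lyz2, Mmp12 and Ppbp) and blue where lower in it (such as C1qb, F13a1 and S100a8), and other named genes are black.

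Counting 1 UMI or more, RNA of the C1q genes was found in a minority of members labelled knockout and in nearly all members labelled wild type. At least 1 UMI of C1qa, C1qb or C1qc was present in 7 of 20 members labelled knockout (35%, 15.4 to 59.2%) and in 35 of 37 members labelled wild type (94.6%, 81.8 to 99.3%). After each cell was thinned to 5000 UMIs the counts were 7 of 20 (35%) and 32 of 37 (86.5%, 71.2 to 95.5%), so the gap was also there at equal depth. Among other cells thinned alike, 0.575% of those labelled knockout and 2.01% of those labelled wild type had a C1q UMI. Without the keratin-rich member, the share of members labelled wild type with a C1q UMI was 94.4%. A sum of 1000 CPM or more over the 3 genes was found in 6 of 20 members labelled knockout (30%, 11.9 to 54.3%). It was found in 28 of 37 labelled wild type (75.7%, 58.8 to 88.2%). This gene group was picked for description after its values were seen. The 3 genes lie side by side on chromosome 4 of GRCm38: C1qb (identifier 12260) at chr4:136880126-136886200, C1qc (12262) at chr4:136889801-136892936 and C1qa (12259) at chr4:136895916-136898844, and no other annotated gene overlaps them.

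To show the DNA at the starts of C1q genes, the window from 250 bases before to 50 bases after the start given in the promoter table is printed for C1qb and C1qc, from RefSeq in build GRCm38.p6. Each is read 5′ to 3′ on the strand of the gene, the minus strand. Capitals mark the letters GAGGAA, the core to which PU.1-type factors bind, or their reverse complement TTCCTC.
C1qb: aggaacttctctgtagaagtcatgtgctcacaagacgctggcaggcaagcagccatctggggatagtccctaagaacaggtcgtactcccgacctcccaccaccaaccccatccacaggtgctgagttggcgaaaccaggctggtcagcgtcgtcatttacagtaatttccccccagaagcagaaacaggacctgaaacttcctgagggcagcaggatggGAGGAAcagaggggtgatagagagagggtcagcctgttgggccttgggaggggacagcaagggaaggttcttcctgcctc
C1qc: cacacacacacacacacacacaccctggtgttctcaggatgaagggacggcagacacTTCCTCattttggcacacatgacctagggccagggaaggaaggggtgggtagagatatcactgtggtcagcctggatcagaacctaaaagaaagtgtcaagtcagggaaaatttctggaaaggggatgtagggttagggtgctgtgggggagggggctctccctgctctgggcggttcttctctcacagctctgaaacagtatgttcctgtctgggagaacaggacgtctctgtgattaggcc
The window of C1qb spans chr4:136886151-136886450 and holds 1 match on the strand of the gene, and that of C1qc spans chr4:136892865-136893164 and holds 1 on the other strand. The start used for C1qc lies inside the bounds of the gene given above, not at their edge. On both strands and with no account of overlap with other motifs, GAGGAA occurs in 28.3% of 32851 windows of the same length. Some genes have more than 1 window, and a gene was counted when any of its windows held a match. By gene the share was 31.3% of 27025 genes, 31.5% of 2165 genes compared here and 47.9% of 259 genes at least 5-fold higher in members. Of 50 genes at least 5-fold lower in members, 40.0% held it. A match is a description of letters and not of binding.

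Summed over members, C1qb had 816 CPM (291 UMIs) in the library labelled knockout and 2086 CPM (1734 UMIs) in the library labelled wild type, a log2 ratio of −1.35 (−1.54 to −1.17). C1qa had 889 and 1670 CPM, with a log2 ratio of −0.91 (−1.09 to −0.73), and C1qc 639 and 1470 CPM, with −1.20 (−1.41 to −0.996). A single member labelled knockout, its deepest with 37794 UMIs, carried 54.6% of the C1qb UMIs of that library. With the highest cell left out on each side, the log2 ratio was −2.21 for C1qb, −1.63 for C1qa and −1.82 for C1qc. With equal weight for each cell they were −1.71, −1.24 and −1.39 in that order of genes.

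The ranges of cells that had C1q RNA overlapped between the libraries. The summed level of the 3 genes in the 7 positive members labelled knockout was 296, 2007, 3771, 3934, 4176, 7791 and 11404 CPM. In the 35 positive members labelled wild type it ran between 66.5 and 12478 CPM with a median of 4230. All 3 genes were present together in 6 members labelled knockout and in 30 members labelled wild type. The median depth of members with and without C1q in the library labelled knockout was 17719 and 15690 UMIs. The rule gene Fcgr3 had a median of 5141 CPM in the 7 members labelled knockout with C1q and 5290 CPM in the 13 without. Pf4 had 5464 CPM in the members with C1q against 325 CPM in those without, Lyz2 5212 against 1402 CPM, and Saa3 92067 against 26625 CPM. Only 2 members labelled wild type lacked C1q, too few for the same description.

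**Figure D4:**
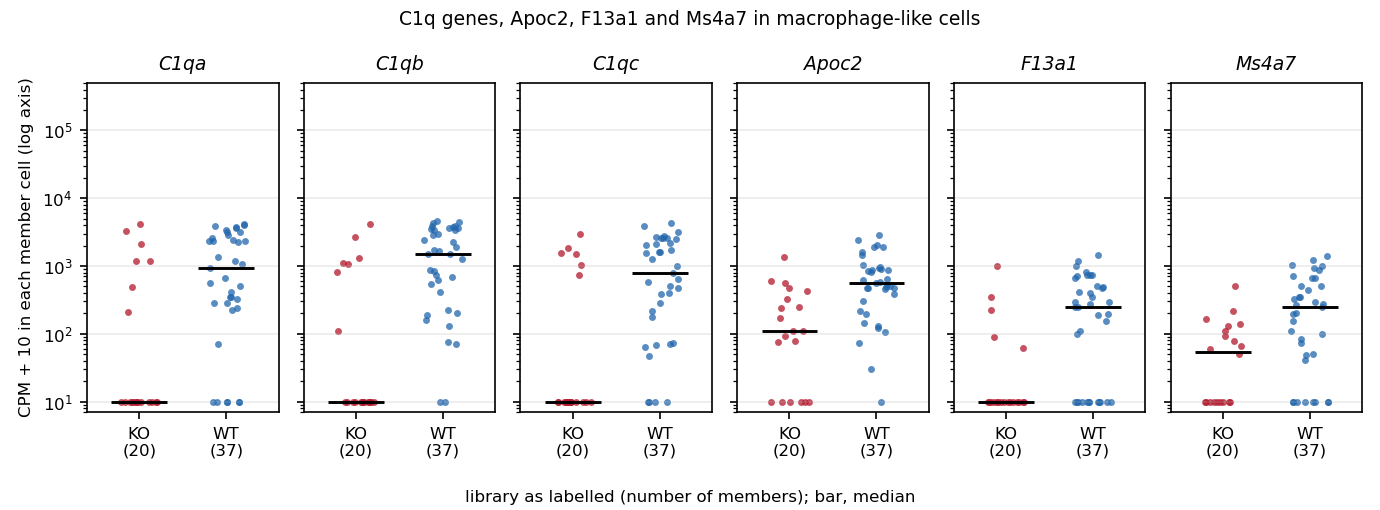
Level of C1qa, C1qb, C1qc, Apoc2, F13a1 and Ms4a7 in each member, on a log axis of CPM + 10, with the library labelled knockout (KO, 20 cells) on the left of each panel and the library labelled wild type (WT, 37 cells) on the right. Points are cells and bars are medians; points at the lower edge have no UMI, as for C1qb in 13 of 20 members labelled knockout and 2 of 37 labelled wild type.

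The other complement genes compared were within 2-fold. The list of 11 complement and complement receptor genes had 9 with at least 50 UMIs, of which 0 were higher and 2 (C1qb and C1qc) lower, with a median log2 ratio of −0.17 against 0.06 over all genes. C3, the central component, had 185 CPM in members labelled knockout and 126 CPM in members labelled wild type (log2 0.55, 0.08 to 1.01). Cfp, which encodes properdin, a positive regulator of the alternative pathway, had 752 and 757 CPM (−0.01, −0.22 to 0.20). C5ar1, the gene of a receptor for the fragment C5a, had 998 and 701 CPM (0.51, 0.32 to 0.70).

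F13a1, Ms4a7 and Slamf9 were also lower in members labelled knockout. F13a1 (identifier 74145, chr13:36867178-37050244), which encodes the A chain of coagulation factor XIII, had 56.1 CPM in members labelled knockout and 314 CPM in members labelled wild type, a log2 ratio of −2.48 (−3.22 to −1.83). It had a UMI in 5 of 20 members labelled knockout and in 25 of 37 labelled wild type. The coordinates of F13a1 overlap those of Gm30489 and Gm30240. Ms4a7 (identifier 109225, chr19:11321039-11336146), a gene of a tetraspan membrane protein of mature macrophages, had 98.2 and 390 CPM, a log2 ratio of −1.99 (−2.54 to −1.48). Without the highest cell of each library the ratios were −3.39 for F13a1 and −2.73 for Ms4a7. Slamf9, a gene of the SLAM family of leukocyte receptors, was at −1.73 (−2.50 to −1.04), with a UMI in 5 of 20 members labelled knockout and 26 of 37 labelled wild type. In the library labelled knockout 2 of the 5 cells with F13a1 had C1q RNA, against 7 of all 20 members. In the library labelled wild type 25 of 25 had it, against 35 of all 37 members.

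Apoc2, the gene of an apolipoprotein that activates lipoprotein lipase, had 325 CPM in members labelled knockout and 801 CPM in members labelled wild type (log2 −1.30, −1.60 to −1.01). A UMI of it was present in 14 of 20 members labelled knockout and 36 of 37 labelled wild type. Apoe, the neighbouring apolipoprotein gene of lipid export, was closer to equal, with 3629 and 4194 CPM (−0.21, −0.30 to −0.12). Of 12 genes of lipid handling and the Trem2 program compared, 0 were past 2-fold in either direction, against 6.33% of all genes. Their median log2 ratio was 0.06, equal to that over all genes. Acp5, the gene of tartrate-resistant acid phosphatase, had 844 and 1669 CPM (−0.98, −1.17 to −0.80) and so was not past 2-fold as reported, but it was at −1.26 without the highest cells, −1.34 without the deepest members and −1.03 with equal weight for each cell.

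S100a8, which encodes a calcium-binding protein of myeloid cells, had 1719 CPM in members labelled knockout and 5180 CPM in members labelled wild type (log2 −1.59, −1.72 to −1.47). Per cell it ran up to 9486 CPM (median 235) in the library labelled knockout and up to 26060 CPM (median 1095) in the library labelled wild type. Its usual partner gene S100a9 had 0 and 2 UMIs in the same members. Ifitm3, an interferon-induced gene of antiviral membrane proteins, had 92.6 and 436 CPM (−2.23, −2.80 to −1.72), but the other cells of the culture showed the same direction with 250 and 698 CPM. Bst2, the other interferon response gene with at least 50 UMIs out of 15, was at −0.34 (−0.67 to −0.02). Ifit1, Ifit2 and Ifit3 had 0 UMIs in members.

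Other genes with the lowest ratios were Marcks, which encodes an actin-binding substrate of protein kinase C (−1.81, −2.86 to −0.90), Kctd12, a gene of a subunit of GABA-B receptors (−1.66, −2.51 to −0.90), Rcbtb2 (−1.65), Rpl22l1 (−1.57) and H2az2 (−1.47), a gene of the histone variant H2A.Z. With cells thinned to 5000 UMIs Marcks was at −0.25, Rpl22l1 at −0.79 and H2az2 at −0.48, and Marcks was at −0.72 when a rule gene needed 50 CPM. Krt5 was also among them. Of the 207 Krt5 UMIs of members labelled wild type, 118 lay in 1 cell, and without the keratin-rich member of that library its log2 ratio was −0.59, against −1.72 with it. The receptor gene for immunoglobulin G Fcgr1 was also lower (30.9 CPM in members labelled knockout and 66.2 CPM in members labelled wild type, −1.10, −2.18 to −0.15), while Fcgr2b (0.18) and Fcgr4 (−0.16) were near equal.

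The lysozyme genes Lyz2 and Lyz1 and the protease gene Mmp12 were higher in members labelled knockout. Lyz2 had 6156 CPM in members labelled knockout and 2489 CPM in members labelled wild type, and its log2 ratio of 1.31 was 0.80 without the deepest member of each library. More than 10000 CPM of Lyz2 was found in 2 members labelled knockout and 1 labelled wild type. Lyz1, the gene of the P-type lysozyme and a near-identical neighbour of Lyz2, had 157 and 46.9 CPM (1.74, 1.13 to 2.37), and reads of the pair could have been split. Of 20 lysosome and cathepsin genes compared, these 2 were higher and 0 lower, with a median of 0.17, and no cathepsin gene was past 2-fold. Mmp12, the gene of macrophage elastase, had 993 CPM in members labelled knockout and 300 CPM in members labelled wild type (1.73, 1.49 to 1.97). It had a UMI in 11 of 20 members labelled knockout and 22 of 37 labelled wild type. Of 7 matrix protease and inhibitor genes compared, Mmp12 was the 1 past 2-fold.

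Serpine2, which encodes the protease inhibitor nexin 1, had 768 CPM in members labelled knockout and 129 CPM in members labelled wild type (log2 2.58, 2.25 to 2.91), with a UMI in 14 of 20 members labelled knockout and 26 of 37 labelled wild type. Csta3, a stefin A gene, was at 1.86 (1.52 to 2.20), the related Cstdc4, picked after its values were seen, had 4381 and 1856 CPM (1.24, 1.14 to 1.34), and Csta2 was within 2-fold at 0.93 (0.85 to 1.02). Orm2 and Orm1, near-identical genes of the acute phase protein orosomucoid, were at 1.35 (0.79 to 1.92) and 1.11 (0.83 to 1.39). With cells thinned to 5000 UMIs Orm2 was at 0.79, and with equal weight for each cell Orm1 was at 0.97. Vps26a, a gene of the retromer complex, was at 1.33 (0.81 to 1.86), and Jaml, a gene of a leukocyte junction adhesion molecule, at 1.28 (0.79 to 1.78). Cyp4f18, a gene of a cytochrome P450 that degrades leukotriene B4 in mouse, had 553 CPM from 3 members labelled knockout and 37.3 CPM from 6 members labelled wild type (3.89, 3.34 to 4.48).

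Several of the highest ratios came from 1 cell. Ppbp, which encodes the chemokine CXCL7, had 2600 CPM in members labelled knockout and 142 CPM in members labelled wild type, a log2 ratio of 4.19, and 98.8% of the UMIs labelled knockout lay in 1 cell with 51696 CPM. Without the highest cell of each library the ratio was −1.79. Marco, a gene of a scavenger receptor for bacteria, was at 1.64, with 90.4% of the UMIs labelled knockout in 1 cell, and at −0.56 without the highest cells. Il1b, the interleukin 1 beta gene, had 510 and 186 CPM (1.45, 1.14 to 1.77). A single cell held 67.6% of the Il1b UMIs of the library labelled knockout, and the ratio was 0.31 without the highest cells. A UMI of Il1b was present in 6 of 20 members labelled knockout and 8 of 37 labelled wild type. Chil3, which encodes the chitinase-like protein Ym1 of mouse macrophages, went the other way with 4 and 209 UMIs (log2 −4.49), and 78.0% of its UMIs in the library labelled wild type lay in 1 cell.

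**Figure D5:**
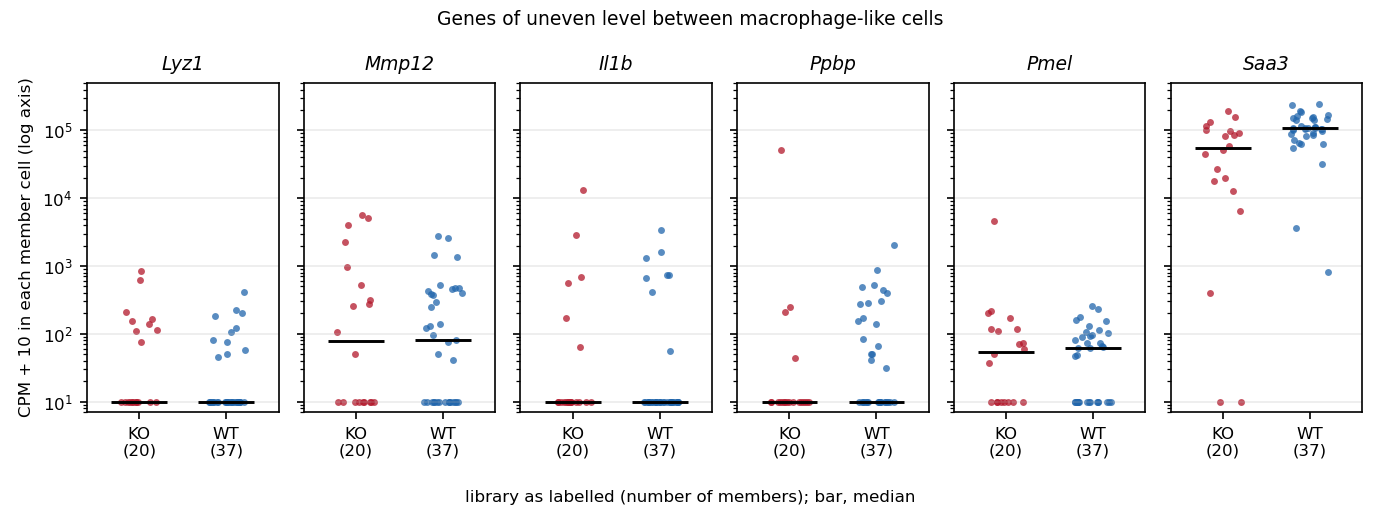
Level of Lyz1, Mmp12, Il1b, Ppbp, Pmel and Saa3 in each member, on a log axis of CPM + 10, library labelled knockout (KO, 20 cells) on the left of each panel and library labelled wild type (WT, 37 cells) on the right, bars at the median. Single cells labelled knockout stand far above the rest for Ppbp (51696 CPM), Il1b (13197 CPM) and Pmel (4613 CPM), and Saa3 has 4 members labelled knockout below 10000 CPM.

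Summed pigment cell and keratinocyte RNA of members differed between the libraries, largely through 1 member of each library. Values without these cells follow, and the cause of the difference was not tested. Of 4 melanocyte markers compared (Dct, Tyrp1, Pmel and Mlana, which act in the melanosome), 4 were higher in members labelled knockout, with summed levels of the 8 listed markers of 1405 CPM labelled knockout and 254 CPM labelled wild type. Per cell the sum had a lowest value of 77.0, a median of 245 and a highest value of 14522 CPM in members labelled knockout, and 0, 190 and 1486 CPM in members labelled wild type. A single member labelled knockout, with 29266 UMIs, held between 83.5% and 88.8% of the UMIs that members labelled knockout had of each of these 4 genes, and Pmel was at −0.10 without the highest cells against 2.80 with them. Dct was at 0.14, Tyrp1 at 0.55 and Mlana at 0.38 without them. In the other cells Pmel had 244 CPM labelled knockout and 142 CPM labelled wild type. Of 6 keratinocyte markers compared, 5 were lower in members labelled knockout. Without the keratin-rich member labelled wild type 1 of them, Perp (−1.17), a gene of a desmosome protein, was past 2-fold, while Krt17 was at −0.19, Krt6a at −0.21 and Sfn at −0.47. Their list of 12 summed to 1767 CPM (cells between 887 and 2208) in members labelled knockout and 4030 CPM (cells between 1267 and 33848) in members labelled wild type.

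Chemokine genes took more of the RNA of members than of other cells, and most of those compared were within 2-fold between libraries. Of 12 chemokine genes compared 2 were higher in members labelled knockout and 0 lower, with a median log2 ratio of 0.37 against 0.06 over all genes. Ccl2 was at 0.76 (0.64 to 0.88) and Ccl9 at 0.82 (0.69 to 0.95), both genes of monocyte attractants. Without the highest cell of each library Ccl2 was at 0.49 and Ccl9 at 0.26. Ccl3 and Ccl4, near neighbours whose annotations overlap, had 2908 and 3050 CPM (−0.07) for Ccl3 and 2911 and 2494 CPM (0.22) for Ccl4, labelled knockout before labelled wild type. Cxcl2, a neutrophil attractant gene, had 3579 and 3828 CPM (−0.10), and Cxcl3 6083 and 4243 CPM (0.52). Ccl6, besides Ppbp the gene past 2-fold, had 3110 CPM in members labelled knockout and 1303 CPM in members labelled wild type (1.26, 1.13 to 1.38). Ccl6, Ccl2, Ccl9, Lyz2 and Ppbp were the 5 most variable between cells of the macrophage, chemokine and lysosome lists. Ccl6 had a UMI in 11 of 20 members labelled knockout and 20 of 37 labelled wild type, and reached 23107 and 7081 CPM in the highest cell, without which its ratio was 0.75.

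Among 6 inflammatory cytokine genes compared, Il1b and Il6 were higher and 0 lower, with a median of −0.05. Il6, the interleukin 6 gene, had 104 CPM from 8 members labelled knockout and 31.3 CPM from 6 members labelled wild type (log2 1.73, 0.97 to 2.51), and its ratio was 0.76 with cells thinned to 5000 UMIs. Tnf (−0.16), Nos2 (−0.17) and Acod1 (−0.14), the genes of tumour necrosis factor, inducible nitric oxide synthase and the itaconate enzyme, had ratios with intervals that included 0. Arg1, the arginase gene used as a marker of alternative activation, had 2314 and 1384 CPM (0.74, 0.61 to 0.87). Il10, a gene of an anti-inflammatory cytokine, had 202 and 203 CPM (−0.01, −0.43 to 0.40). Of 6 genes of alternative activation compared, Chil3 was lower and 0 were higher.

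Most genes of macrophage identity and signalling were within 2-fold. Over all genes compared 6.33% were past 2-fold in either direction, so lists this short would hold few or none. Of 9 lineage and transcription factor genes compared 0 were past 2-fold, with a median log2 ratio of 0.12, and Spi1 was at 0.16 (−0.11 to 0.42). Of 16 pan macrophage surface genes 0 were higher and 1, Fcgr1, was lower (median 0.16). Cd14, the gene of a co-receptor for bacterial lipopolysaccharide, had 2496 and 1589 CPM (0.65, 0.53 to 0.78). Of 9 receptor adaptor and signalling genes, which include Fcer1g and Tyrobp of the rule, 0 were past 2-fold (median −0.02). The same held for 10 genes of cystine transport, NRF2 targets and heme (−0.02), 10 of glycolysis and hypoxia (0.19), 6 of class I presentation (0.12), 4 of the integrated stress response (0.38) and 7 immediate early genes (−0.06). Of 7 apoptosis regulators Bcl2l1, the gene of the survival protein BCL-XL, was higher (126 CPM labelled knockout and 57.7 CPM labelled wild type, 1.13, 0.51 to 1.75), and 0 were lower. Bcl2l1 was at 0.15 with cells thinned to 5000 UMIs, at 0.97 without the highest cells and at 0.99 with equal weight for each cell.

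Of the growth factor genes for macrophages, Csf1 was lower in members labelled knockout, and Il34 was higher in the other cells of that library. In members Csf1 had 22.4 CPM in the library labelled knockout and 74.6 CPM in the library labelled wild type (log2 −1.73, −3.01 to −0.67), and its ratio was −0.76 when a rule gene needed 50 CPM. In the other cells Csf1 had 190 and 325 CPM, a log2 ratio of −0.78 (−0.81 to −0.74). Il34, the gene of the other ligand of the CSF1 receptor, had 0 UMIs in members and 20.5 and 7.83 CPM in the other cells (1.39, 1.25 to 1.53). The granulocyte-macrophage factor gene Csf2 had 162 and 181 CPM in the other cells. The receptor genes of members were near equal, with Csf1r at 0.05 (−0.41 to 0.50), Csf2ra at 0.40 (−0.04 to 0.83) and Csf2rb at 0.31 (−0.27 to 0.88). Of the 5 genes of this list compared, Csf1 was lower and 0 were higher.

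Few proliferation genes reached 50 UMIs in members, and much of their RNA lay in 4 members labelled wild type. Summed per cell, genes of G2 and M phase reached a median of 157 CPM and a highest value of 370 CPM in members labelled knockout, and a median of 192 CPM in members labelled wild type. In the library labelled wild type 4 of 37 members had 1653, 2338, 2504 and 3161 CPM, and the next highest had 427 CPM. The S phase list had medians of 109 CPM labelled knockout and 118 CPM labelled wild type. Of the G2 and M phase list of 20 genes, 3 reached 50 UMIs, and 2 of these were lower. Birc5, which encodes survivin, had 1 UMI in members labelled knockout and 54 in members labelled wild type. The log2 ratio of Birc5 was −4.53 (−9.86 to −1.99), with 48.1% of the UMIs labelled wild type in 1 cell. Ube2c, a gene of a ubiquitin-conjugating enzyme of mitosis, had 2 and 50 UMIs (−3.42, −6.51 to −1.49). Tyms, the thymidylate synthase gene and the 1 gene compared of the S phase list, was lower at −1.17 (−2.47 to −0.06). With cells thinned to 5000 UMIs Tyms was at −0.53, and it was at −0.80 without the deepest member of each library. The thinned ratio of Birc5, −0.70, used a floor of 3 counts in place of 0 UMIs labelled knockout. Its size cannot be set against −4.53. The other cells of the culture had the same direction, with 39.2 CPM of Ube2c labelled knockout and 144 CPM labelled wild type, and 15.1 and 59.4 CPM of Birc5.

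Lists named for other myeloid states had few genes with enough UMIs. Of the 10 monocyte genes 3 were compared, and 2 were lower: Chil3 and Ly6c2, a gene of the Ly6C surface antigen, with 3 and 80 UMIs (log2 −3.52, −5.82 to −1.92). Of the 15 resident macrophage genes 3 were compared, and F13a1 was lower while Stab1 (−0.60, −1.32 to 0.06) and Selenop (−0.04, −0.21 to 0.14) were not past 2-fold. Of the 2 osteoclast-like fusion genes compared 0 were past 2-fold. Axl, Mertk and the other genes of the Gas6 and TAM receptor list, like those of the Bap1 complex, had fewer than 50 UMIs each.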

How the data were processed

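The 2 libraries, 1 for each genotype, were made with a 10x Genomics Chromium 3′ kit, per the labels' protocols. The authors deposited UMI counts, genes by cells, read here as whole-number counts. The submitters' processing notes name mm10, Cell Ranger 2.1 and Seurat 2.0 without their roles. Cell calling, doublet removal, strand and intron counting are not stated there or in the labels. Of 36528 NCBI gene identifiers 31049 matched RefSeq (GRCm38.p6), and the other 5479 held 2.86% of the members' UMIs and stayed in the totals.

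All deposited cells entered. Counts were summed over the members of a library, without a cell filter, and scaled to CPM. Genes with at least 50 UMIs over both libraries were compared, and a 2-fold ratio (5-fold for members over other cells) counted as a call. Sums have Poisson, shares Clopper-Pearson and ratios conditional exact 95% intervals, and 0 UMIs were set to a floor of 3 counts over the library's members. Ratio code was tested on simulated Poisson counts. Scrublet, with an assumed rate of 0.02, marked 7 cells (0.398%) labelled knockout and 1 (0.0519%) labelled wild type, 0 of them members. That is too few to count as working, so doublets stayed in.

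The members and the 40 gene lists were chosen with earlier results of these data known. Named genes are the 6 rule genes, the 20 with the highest member ratio, and the 12 highest and 12 lowest between libraries. The 12 needed 100 UMIs and a UMI in 25% of members of the higher library. Sex chromosome genes, haemoglobins, numbered gene models, unmatched identifiers and genes at 10 times the level in other cells were left out. In each list the 4 genes with most UMIs and those past 2-fold were eligible, with 5 most variable genes and some fixed by name. Others, such as S100a9, Cyp4f18, Hp, C3, Cfp, Tnf, Acp5, the markers at 0 and C1q as a group, were chosen after their values were seen. Python 3.11.15, scanpy 1.11.5, numpy 2.4.6, scipy 1.17.1, pandas 2.3.3 and matplotlib 3.10.9 were used. Results on a few genes are not reported here.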

Additional observations from a re-analysis of the deposited data

Results flagged for a closer look

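For 3 genes the members and the other cells went opposite ways between the libraries, each past 2-fold, and the difference was not tested. Ppbp had a log2 ratio of 4.19 in members and −1.37 in other cells, and that of members rested on 1 cell. Orm1 had 1.11 in members and −1.40 in other cells. Ly6c2 had −3.52 in members and 1.06 in other cells.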

How the results depend on the processing

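The shares of members and the shares of members with C1q RNA stayed within their intervals under every alternative run. Several alternatives could change little. Needing 4 of 6 rule genes or leaving out Wfdc17 chose the same members, and a cell filter and Scrublet removed none of them. Minimums of 20 and 100 UMIs left each gene's ratio as it was. As reported, 61 genes were higher and 113 lower of 2749 compared. A minimum of 20 UMIs gave 176 and 473 of 5353 genes, and one of 100 UMIs gave 30 and 50 of 1550. Thinning to 5000 UMIs gave 31 and 25, and it changed both which genes reached the minimum and their ratios. A minimum of 50 CPM for a rule gene gave 103 higher, and the cause was not tested. An alternative chosen after seeing the data, keeping the 806 genes at least as high in members as in the other cells of both libraries, left 36 lower and 41 higher. Of 54 named genes with a ratio past 2-fold, 22 stayed past it under all alternatives run and 48 kept their direction. These 54 include genes with fewer than 50 UMIs, such as Axl and Gas6. The exceptions were Ppbp (−1.79), Pmel (−0.10) and Marco (−0.56) without the highest cell, Marco also without the deepest member (−0.56), Stfa3 when thinned (−0.012), Krt17 at 50 CPM (0.22) and Il1b at the common minimum of 10065 UMIs a cell (−0.13), which leaves out the cell that held most of it. No paired analysis was possible because each group has 1 library. Depth limits low genes, since 3 UMIs are 8.41 CPM over the members labelled knockout.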
